A study of Homo sapiens with 6 samples.

Results

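Hypoxia response genes are the genes of oxygen sensing and the genes that the hypoxia-inducible factors (HIF) switch on. The 38 genes described here were taken by gene name, from a list of names, out of the deposited table of 62753 genes, and each was found in it. The study sequenced messenger RNA from cells with the label HepG2, the name of a human liver cancer line, in 3 WT and 3 sgPARP1 libraries. WT is the line as it is, and in sgPARP1 the gene for poly(ADP-ribose) polymerase 1, which attaches ADP-ribose to proteins at DNA breaks, was knocked out with CRISPR-Cas9. The comparison asks how expression differs without PARP1. The labels name no oxygen tension and no drug, and do not say whether the sgPARP1 cells are 1 clone or a pool or whether each library is a culture of its own. All p-values here therefore rest on the spread among the 6 libraries alone, and that spread may be technical.

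HIF is a dimer of an alpha subunit, HIF1A or EPAS1 (also called HIF-2 alpha), with the stable partner ARNT. While oxygen is present, the prolyl hydroxylases EGLN1, EGLN2 and EGLN3 modify the alpha subunit, VHL binds it and it is degraded. HIF1AN adds a further hydroxyl group that keeps coactivators away. When oxygen runs low the dimer accumulates, binds the core letters ACGTG or GCGTG in DNA and raises genes for blood vessel growth, glucose use, mitochondrial turnover and collagen modification, with EGLN1 and EGLN3 among its own targets. Much of this control acts on the alpha proteins, which were not measured here.

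The libraries hold 14842498 to 17305129 reads, as worked out from the deposited FPKM (reads scaled by gene length and by the reads of the library). PARP1 was at 31.8, 31.5 and 31.5 FPKM in the WT libraries and at 4.31, 4.23 and 4.39 FPKM in the sgPARP1 libraries, a fall of the mean that follows the labels. The log2 fold change, −2.62 with a standard error of 0.037, passed by limma with Benjamini-Hochberg adjustment (p = 7.3e-07), and the exact permutation p, two-sided, was 0.1, the smallest possible for 3 against 3. The defining markers of a hepatocyte line were low: of 13 genes for proteins that hepatocytes secrete, all had means under 0.5 FPKM, and 8, ALB and AFP among them, were listed at 0 in all 6 libraries. Of 6 hepatocyte factors 4 were below 0.5 FPKM, and FOXA1 at 4.29 and CEBPA at 2.22 FPKM were above it. The 5 blood cell markers summed to at most 0.295 FPKM in a library and the 3 endothelial markers to at most 0.386 FPKM. Of 5 fibroblast markers 4 were above 0.5 FPKM, and COL1A2 was listed at 0. The fibroblast markers summed to 27.0 to 29.6 FPKM in WT and to 19.2 to 21.6 FPKM in sgPARP1, lower as most of the genes below were. The sum does not show which markers were lower. LUM averaged 5.09 FPKM with a highest value of 9.72 FPKM, and COL1A1 15.5 FPKM with a highest value of 17.0 FPKM. The part of these markers in the results below was not tested. Low listed values need care, since LDHA and ALDOA, glycolytic enzymes that most lines express strongly, were at 0.605 and 4.48 FPKM in WT while GAPDH was at 1568 FPKM, 3 genes picked after their values were seen.

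Most of the hypoxia response genes that differed were lower in sgPARP1. The 38 genes were chosen with earlier results of these data known, so counts over them are a description. Of the 38 genes, 35 averaged 0.5 FPKM or more and were tested on log2(FPKM + 1). Of these, 14 fell, 1 rose, which was EPAS1, and 20 did not pass (limma, Benjamini-Hochberg adjusted p under 0.05 over all 13167 tested genes). Over all tested genes 4.44% were called lower and 3.52% higher, 7.96% in all. At an unadjusted p under 0.05 in limma the counts were 21 lower and 1 higher, beside 12.3% and 12.1% of all tested genes. Voom on the reads recovered from FPKM called 17 lower and 1 higher, adding KDM3A, NDRG1 and PDK1, beside 6.86% and 5.23% of all tested genes, 12.1% in all. Of the 35 log2 fold changes 29 were below 0, as were 49.1% of those of all tested genes. In 19 of the 35 genes all sgPARP1 values lay below all WT values, which held for 14.9% of all tested genes. In 2 of them, EPAS1 and HIF1AN, all sgPARP1 values lay above, which held for 16.1% of all tested genes. The median log2 fold change of the 35 genes was −0.22, beside 0.00292 over all tested genes. The decreases that passed ran from 16.7% for BNIP3L to 48.1% for STC2 in mean FPKM. Percent changes are ratios of mean FPKM, while a log2 fold change is taken after 1 FPKM is added, which makes the change of a low gene look smaller. The 14 genes that fell had means of 4.05 to 256 FPKM (median 11.5) and the 20 that did not pass 0.647 to 86.5 FPKM (median 13.0), so the levels of the 2 sets overlapped. The 15 calls became 7 without WT replicate 2, 9 without WT replicate 3 or sgPARP1 replicate 1, and 10 or 11 without one of the others, while the calls over all genes went from 1048 to between 412 and 652. With no filter on low values 10 were called, and EGLN1, EGLN3, EPAS1, ERO1A and INSIG2 were lost. Counts by role in the paragraphs below rest on 3 to 9 tested genes each, and stand beside the 4.44% of all tested genes called lower. In RNA of whole cultures, fewer expressing cells and less RNA per cell cannot be told apart.

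**Figure D1:**
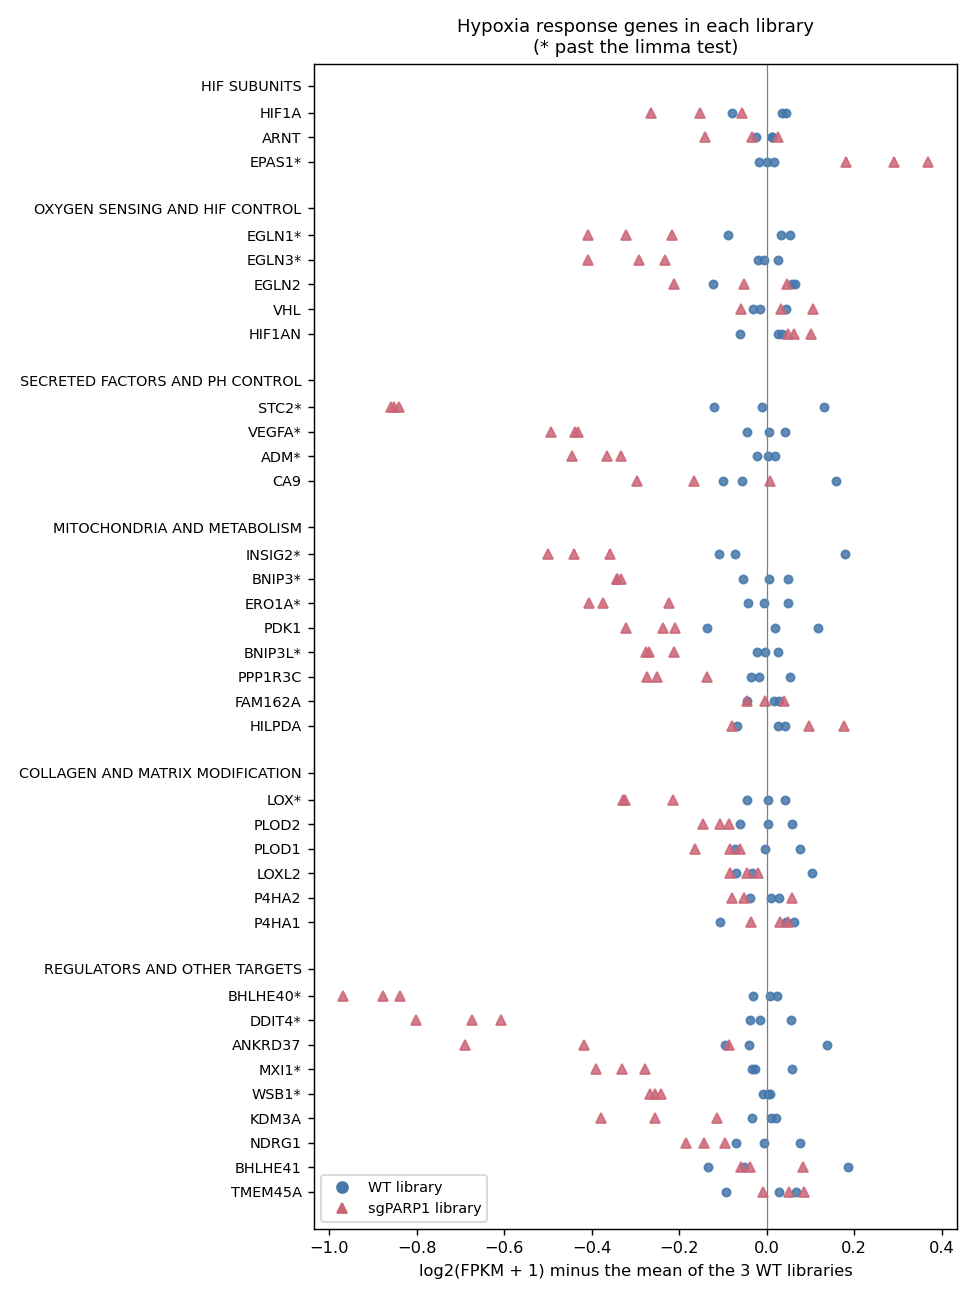
Value of each of the 35 tested genes in each library, as log2(FPKM + 1) minus the mean of the 3 WT libraries, grouped by role, with genes past the limma test starred. The 3 sgPARP1 libraries lie below the 3 WT libraries in 19 genes and above them in 2, EPAS1 and HIF1AN.

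The core letters of HIF binding are shown here in promoters of 5 genes that fell and of 2 genes that did not pass, chosen after their values were seen, to set the letters beside the measured change. The 250 bases before each RefSeq gene start (GRCh38.p14) were searched for ACGTG and GCGTG on both strands. Of the 38 genes 31 had a promoter entry, and BNIP3L, VHL, VEGFA, NDRG1, LOXL2, HILPDA and STC1 had none. Of 12 genes that fell, 10 held at least 1 match, as did 11 of 16 genes that did not pass and EPAS1, which rose. Among 9081 promoters of tested genes 59% held a match, and among all 27305 promoters 43.1%. ACGTG was in 8 of the 12 and in 8 of the 16, beside 24.3% of promoters of tested genes. The palindrome CACGTG, which holds ACGTG on both strands and is counted there as 2 matches, was in 3 of the 12 and in 4 of the 16, beside 9.28% of promoters of tested genes. MYC-family proteins and BHLHE40 itself are known to bind CACGTG. Many of the 38 genes are listed because HIF is known to raise them. A share of matches above that of all promoters may thus come with the list and is no result about sgPARP1. A match is a string of letters and not a bound site, and elements farther away were outside the window. Sequences run 5′ to 3′ on the gene's strand and end where the gene begins in the deposited table or, if earlier, at the RefSeq start, and capitals mark ACGTG or GCGTG, or the same letters on the other strand, where they read CACGT or CACGC.
BHLHE40, chr3:4979187-4979436, plus strand: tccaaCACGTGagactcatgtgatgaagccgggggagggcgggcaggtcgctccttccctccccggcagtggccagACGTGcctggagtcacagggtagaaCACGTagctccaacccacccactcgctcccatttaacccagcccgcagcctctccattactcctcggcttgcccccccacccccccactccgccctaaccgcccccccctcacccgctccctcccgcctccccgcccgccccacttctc
DDIT4, chr10:72273674-72273918, plus strand: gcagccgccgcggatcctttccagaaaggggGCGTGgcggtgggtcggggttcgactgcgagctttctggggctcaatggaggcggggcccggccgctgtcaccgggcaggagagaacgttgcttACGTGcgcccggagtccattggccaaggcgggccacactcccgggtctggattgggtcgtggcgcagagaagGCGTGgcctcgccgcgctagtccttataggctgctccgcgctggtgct
STC2, chr5:173328448-173328664, minus strand: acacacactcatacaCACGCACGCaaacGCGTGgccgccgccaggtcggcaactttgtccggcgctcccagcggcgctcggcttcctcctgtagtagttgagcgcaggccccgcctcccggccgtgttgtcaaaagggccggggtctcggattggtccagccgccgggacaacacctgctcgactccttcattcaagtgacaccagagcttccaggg
BNIP3, chr10:131981968-131982173, minus strand: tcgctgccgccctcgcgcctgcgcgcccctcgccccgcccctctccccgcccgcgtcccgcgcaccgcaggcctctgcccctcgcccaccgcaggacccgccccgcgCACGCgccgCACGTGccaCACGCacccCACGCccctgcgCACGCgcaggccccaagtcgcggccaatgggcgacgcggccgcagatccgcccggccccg
EGLN1, chr1:231422288-231422537, minus strand: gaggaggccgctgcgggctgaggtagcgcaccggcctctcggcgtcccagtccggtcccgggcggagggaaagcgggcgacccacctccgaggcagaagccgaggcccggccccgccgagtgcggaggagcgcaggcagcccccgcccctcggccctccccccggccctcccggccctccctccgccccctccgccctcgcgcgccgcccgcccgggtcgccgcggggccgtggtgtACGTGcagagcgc
FAM162A, chr3:122383932-122384160, plus strand: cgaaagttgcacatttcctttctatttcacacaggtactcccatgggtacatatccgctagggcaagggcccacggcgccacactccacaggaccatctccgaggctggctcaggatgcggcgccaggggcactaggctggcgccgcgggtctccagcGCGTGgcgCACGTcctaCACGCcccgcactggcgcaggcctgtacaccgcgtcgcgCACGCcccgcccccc
PPP1R3C, chr10:91633072-91633321, minus strand: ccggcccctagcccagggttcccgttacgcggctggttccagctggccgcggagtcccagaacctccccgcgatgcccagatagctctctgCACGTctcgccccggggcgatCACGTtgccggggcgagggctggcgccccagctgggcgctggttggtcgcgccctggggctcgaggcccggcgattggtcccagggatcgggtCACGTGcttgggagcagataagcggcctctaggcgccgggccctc

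BHLHE40 and BNIP3 fell and hold CACGTG, and so does PPP1R3C, which did not pass. FAM162A held 4 matches and had the smallest log2 fold change of the 35 genes. STC2 fell by 48.1% and held GCGTG without ACGTG, and MXI1 fell by 22.5% with neither in its window.

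Of the HIF subunits, EPAS1 rose while HIF1A and ARNT did not pass. EPAS1 (ENSG00000116016, plus strand of chromosome 2, 46293667 to 46386697 in hg38) was at 17.3, 17.7 and 17.5 FPKM in the WT libraries and at 21.7, 22.9 and 20.01 FPKM in the sgPARP1 libraries. The groups did not overlap, and the mean was 22.9% higher, a log2 fold change of 0.28 with a standard error of 0.054 (limma, adjusted p = 0.0266). HIF1A (ENSG00000100644, plus strand of chromosome 14, 61695513 to 61748259 in hg38) was at 48.5, 52.5 and 52.8 FPKM in WT and at 46.0, 49.2 and 42.5 FPKM in sgPARP1. The groups overlapped through the second sgPARP1 library, and HIF1A had a log2 fold change of −0.16 with an unadjusted 95% interval of −0.31 to −0.00948 (limma, adjusted p = 0.181). ARNT was at 14.1 ± 0.218 FPKM in WT and 13.6 ± 0.843 FPKM in sgPARP1 (mean ± SD, n = 3 each). The ratio of HIF1A to EPAS1 in FPKM was 2.80, 2.96 and 3.02 in WT and 2.12, 2.15 and 2.12 in sgPARP1. The 2 groups of ratios did not overlap, and the exact permutation p of their logarithm was again 0.1, the smallest possible. The EPAS1 call held without sgPARP1 replicate 3 and was lost without any 1 of the other 5 libraries, where limma gave adjusted p-values of 0.0559 to 0.0994 and log2 fold changes of 0.24 to 0.29.

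**Figure D2:**
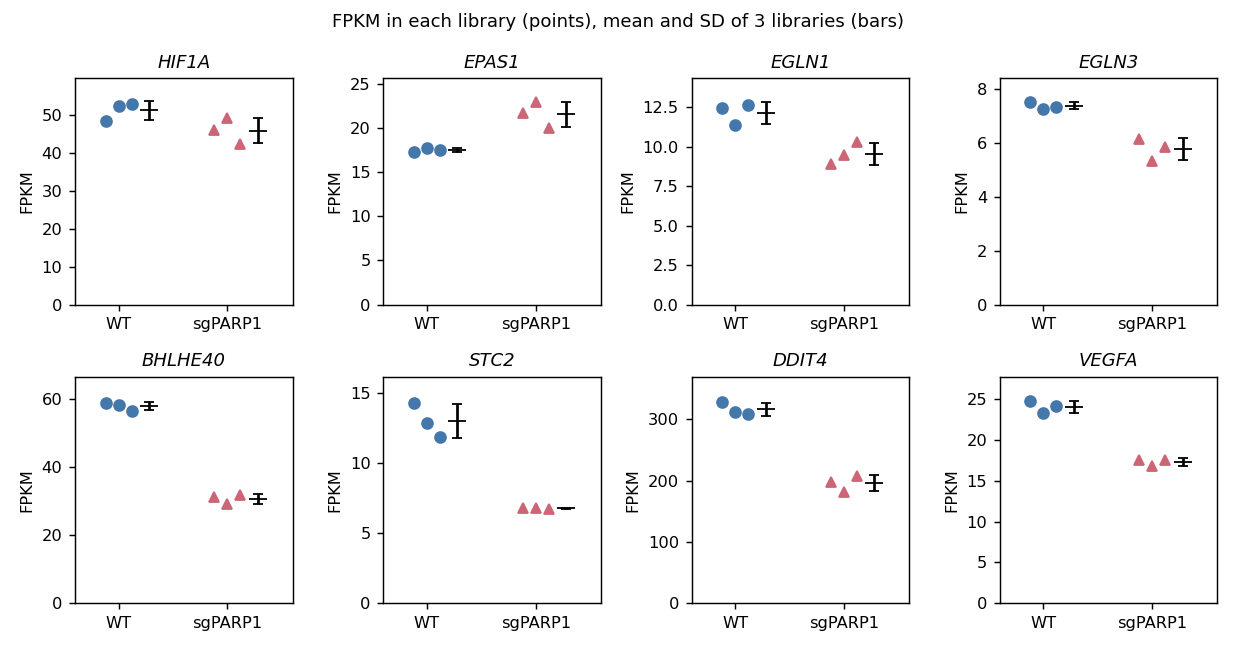
FPKM of 8 genes in each library, with points for libraries and bars for the mean and SD of 3 libraries, each axis starting at 0. The groups overlap in HIF1A, EPAS1 is higher in sgPARP1, and EGLN1, EGLN3, BHLHE40, STC2, DDIT4 and VEGFA are lower, with BHLHE40 at 57.7 against 30.6 FPKM.

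Of the 5 oxygen sensing genes, EGLN1 and EGLN3 fell. EGLN1 (ENSG00000135766, minus strand of chromosome 1, 231363751 to 231422287 in hg38), the main hydroxylase of HIF alpha in most cells, was at 12.4, 11.4 and 12.6 FPKM in WT and at 8.89, 9.504 and 10.3 FPKM in sgPARP1. Its groups did not overlap, and it fell by 21.2%, a log2 fold change of −0.32 with a standard error of 0.065 (limma, adjusted p = 0.0341). EGLN3 (ENSG00000129521, minus strand of chromosome 14, 33924227 to 34462774 in hg38), a hydroxylase whose own transcription HIF raises, was at 7.52, 7.27 and 7.34 FPKM in WT and at 6.13, 5.32 and 5.84 FPKM in sgPARP1. Its groups did not overlap either, and it fell by 21.9%, a log2 fold change of −0.31 with a standard error of 0.057 (limma, adjusted p = 0.0239). The listed span of EGLN3 contains SPTSSA on the same strand, at 52.2 FPKM, so how reads were shared between them is not known. EGLN1 was called without sgPARP1 replicate 3 and lost without any 1 of the other 5 libraries (limma, adjusted p = 0.0603 to 0.107, log2 fold changes −0.36 to −0.27). EGLN3 was called without sgPARP1 replicate 1 or 2 and lost without each of the 3 WT libraries and without sgPARP1 replicate 3 (limma, adjusted p = 0.0628 to 0.0821, log2 fold changes −0.32 to −0.30).

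EGLN2, VHL and HIF1AN did not pass. EGLN2 was at 0.971 ± 0.141 FPKM in WT and 0.875 ± 0.168 FPKM in sgPARP1, on 79 to 120 reads per library, and lies within the readthrough gene RAB4B-EGLN2. VHL, which brings hydroxylated HIF alpha to degradation, was at 14.2 ± 0.423 and 14.5 ± 0.88 FPKM, with a 95% interval of the log2 fold change of −0.10 to 0.15. HIF1AN was at 5.83, 5.80 and 5.40 FPKM in WT and at 5.90, 6.15 and 5.96 FPKM in sgPARP1. Its sgPARP1 values all lay above its WT values by a narrow margin, with a log2 fold change of 0.07 (limma, adjusted p = 0.431). HIF1AN overlaps NDUFB8 on the other strand, at 7.62 FPKM, and the use of strand in counting is not known here.

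Of the genes for secreted factors and pH control, 3 of the 4 tested fell. STC2 (ENSG00000113739, minus strand of chromosome 5, 173314723 to 173328447 in hg38), a secreted glycoprotein of calcium and phosphate balance, was at 14.3, 12.9 and 11.9 FPKM in WT and at 6.75, 6.81 and 6.71 FPKM in sgPARP1. The sgPARP1 libraries lay close together and far below the WT libraries, which were more spread. STC2 fell by 48.1%, a log2 fold change of −0.85 with a standard error of 0.067 (limma, adjusted p = 0.00114). VEGFA (ENSG00000112715, plus strand of chromosome 6, 43770184 to 43786487 in hg38), the main signal for blood vessel growth, was at 24.8, 23.3 and 24.2 FPKM in WT and at 17.5, 16.8 and 17.6 FPKM in sgPARP1. The WT and sgPARP1 values were separate, and it fell by 28.1%, a log2 fold change of −0.45 with a standard error of 0.041 (limma, adjusted p = 0.00176). ADM (ENSG00000148926, plus strand of chromosome 11, 10305073 to 10307397 in hg38), which encodes the vessel-widening peptide adrenomedullin, was at 20.2, 20.6 and 20.8 FPKM in WT and at 15.7, 14.8 and 16.1 FPKM in sgPARP1. Again no library of one group reached the other, and ADM fell by 24.3%, a log2 fold change of −0.38 with a standard error of 0.043 (limma, adjusted p = 0.00398). All 3 calls held when any 1 library was left out.

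CA9, carbonic anhydrase 9, a membrane enzyme of pH control and a widely used marker of hypoxia, did not pass. It was at 66.9, 57.5 and 55.7 FPKM in WT and at 53.2, 48.5 and 60.1 FPKM in sgPARP1, so the groups overlapped. Its log2 fold change was −0.15 with a 95% interval of −0.38 to 0.08, wide enough to hold both no difference and one of the size of EGLN1 (limma, adjusted p = 0.384). The other 3 genes of the group averaged below 0.5 FPKM over the 6 libraries and were not tested. CA12, a related carbonic anhydrase, was at 0.488, 0.455 and 0.503 FPKM in WT and at 0.411, 0.288 and 0.373 FPKM in sgPARP1, on 31 to 59 reads per library. Its groups did not overlap, at a depth of few reads. STC1, the relative of STC2, ranged from 0.141 to 0.448 FPKM on 9 to 29 reads, and EPO, the red cell hormone that EPAS1 controls in kidney and liver, had 0 to 2 reads in a library.

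**Figure D3:**
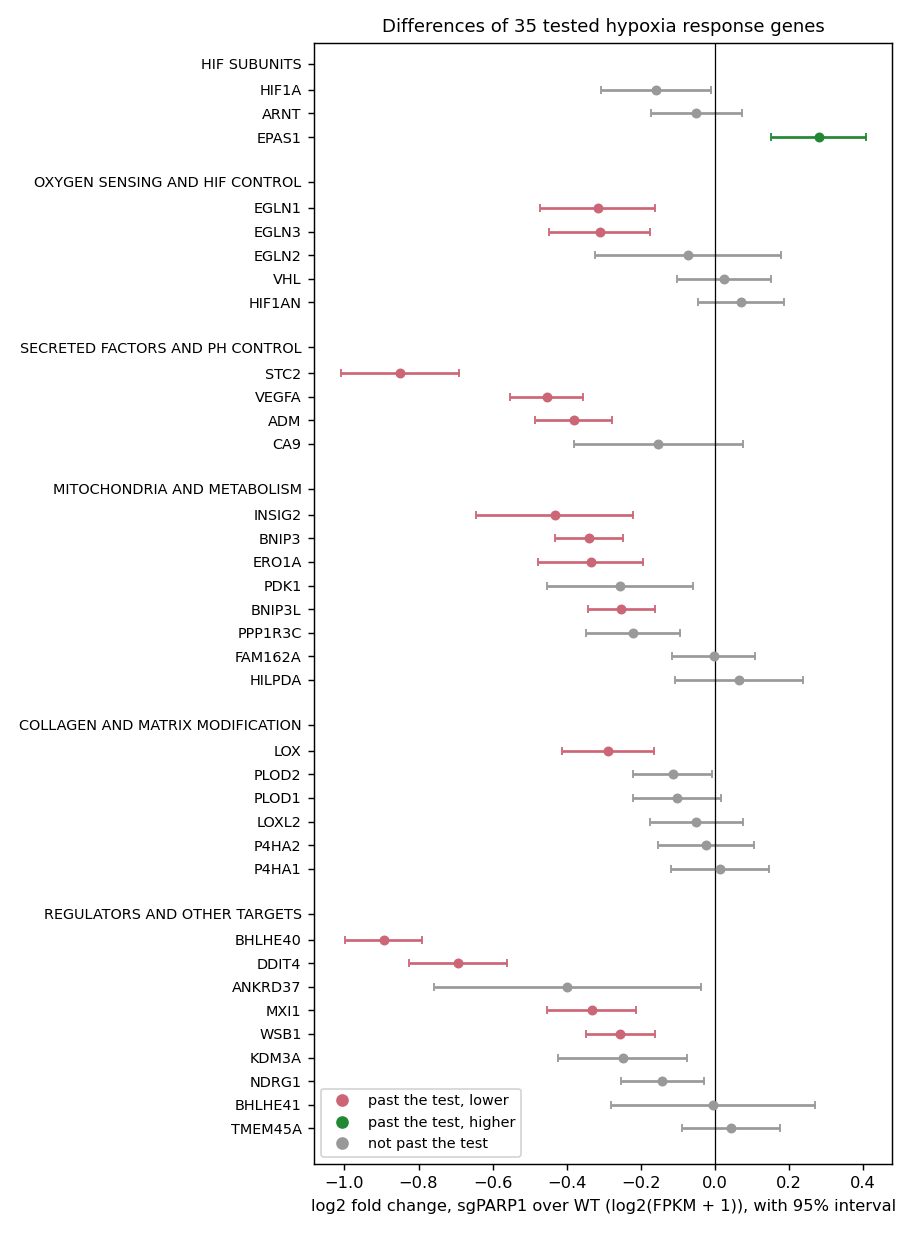
Log2 fold change of sgPARP1 over WT on the log2(FPKM + 1) scale for the 35 tested genes, grouped by role, with unadjusted 95% intervals from limma. Genes past the test are coloured, and BHLHE40 at −0.89, STC2 at −0.85 and DDIT4 at −0.69 lie farthest to the left while EPAS1 at 0.28 lies to the right of 0.

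Of 8 genes of mitochondria and metabolism, 4 fell. BNIP3 (ENSG00000176171, minus strand of chromosome 10, 131967684 to 131981967 in hg38), a receptor for the removal of mitochondria by autophagy, was at 33.2, 34.7 and 35.7 FPKM in WT and at 27.2, 27.0 and 27.0 FPKM in sgPARP1. The sgPARP1 libraries were nearly equal, and BNIP3 fell by 21.6%, a log2 fold change of −0.34 with a standard error of 0.039 (limma, adjusted p = 0.00406). BNIP3 has many processed pseudogenes, each at 0.329 FPKM or less here. Its relative BNIP3L, with the same role, was at 23.4, 24.2 and 23.7 FPKM in WT and at 19.4, 19.5 and 20.4 FPKM in sgPARP1. The groups did not overlap, and BNIP3L fell by 16.7%, a log2 fold change of −0.25 with a standard error of 0.038 (limma, adjusted p = 0.0119). BNIP3L overlaps PNMA2 on the other strand, at 1.64 FPKM. ERO1A, an oxidase that helps form disulfide bonds in the endoplasmic reticulum, was at 13.1, 14.1 and 13.5 FPKM in WT and at 11.5, 9.999 and 10.2 FPKM in sgPARP1. It fell by 22.1% with no overlap of the groups (log2 fold change −0.33, limma adjusted p = 0.0215). INSIG2, which holds back sterol synthesis, was at 4.503, 4.37 and 5.55 FPKM in WT and at 3.51, 3.09 and 3.26 FPKM in sgPARP1, on 188 to 330 reads. It fell by 31.6%, with the third WT library well above the other two (log2 fold change −0.43, limma adjusted p = 0.0327).

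BNIP3 alone of these 4 kept its call without any 1 library. BNIP3L lost it without WT replicate 2 and without sgPARP1 replicate 1 (limma, adjusted p = 0.0629 and 0.0632). ERO1A lost it without each library except sgPARP1 replicate 1 (limma, adjusted p = 0.0516 to 0.0854). INSIG2 lost it without any 1 of the 6 libraries (limma, adjusted p = 0.0583 to 0.0924), with log2 fold changes of −0.49 to −0.34.

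The other 4 metabolic genes did not pass. PPP1R3C, which directs a phosphatase to glycogen, was at 12.5, 13.4 and 12.7 FPKM in WT and at 11.6, 10.7 and 10.5 FPKM in sgPARP1. PDK1, the kinase that turns off pyruvate dehydrogenase, was at 2.25, 2.87 and 2.62 FPKM in WT and at 2.09, 1.85 and 2.03 FPKM in sgPARP1. In both genes every sgPARP1 library was below every WT library, at log2 fold changes of −0.22 and −0.26 (limma, adjusted p = 0.0535 and 0.115). HILPDA, a lipid droplet protein, was at 13.9 ± 0.604 and 14.7 ± 1.39 FPKM. FAM162A, a mitochondrial protein, was at 7.13 ± 0.221 and 7.12 ± 0.241 FPKM, and the 95% interval of its log2 fold change was −0.11 to 0.11. FAM162A overlaps WDR5B on the other strand, at 2.09 FPKM.

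Of 6 genes of collagen and matrix modification, LOX fell. LOX (ENSG00000113083, minus strand of chromosome 5, 122063195 to 122078413 in hg38), the oxidase that crosslinks collagen and elastin, was at 7.85, 8.38 and 8.14 FPKM in WT and at 6.86, 6.29 and 6.26 FPKM in sgPARP1. The groups did not overlap, and LOX fell by 20.3%, a log2 fold change of −0.29 with a standard error of 0.052 (limma, adjusted p = 0.0224). LOX overlaps SRFBP1 on the other strand, at 3.77 FPKM or 51.7% of the level of LOX, so some reads may belong to either gene. The call held without WT replicate 1 or sgPARP1 replicate 1 and was lost without any 1 of the other 4 libraries (limma, adjusted p = 0.064 to 0.0887, log2 fold changes −0.29 to −0.27). The related oxidase LOXL2, whose listed span overlaps ENTPD4 on the same strand (9.68 FPKM), did not pass at 37.3 ± 2.45 and 36.0 ± 0.839 FPKM. The collagen prolyl hydroxylase subunits did not pass either, P4HA1 at 26.6 ± 1.74 and 26.8 ± 0.844 FPKM and P4HA2 at 6.13 ± 0.167 and 6.02 ± 0.359 FPKM. P4HA2 overlaps SLC22A4 on the other strand (2.27 FPKM). For P4HA1 the 95% interval of the log2 fold change was −0.12 to 0.15. Of the collagen lysyl hydroxylases, PLOD1 was at 68.4 ± 3.63 and 63.6 ± 2.38 FPKM. PLOD2 was at 18.0, 18.8 and 19.6 FPKM in WT and at 17.4, 17.6 and 16.9 FPKM in sgPARP1. The groups were separate, at a log2 fold change of −0.11 (limma, adjusted p = 0.182). The median log2 fold change of the 6 genes was −0.08.

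Of 9 regulators and other targets, 4 fell, and 2 of these stood beside STC2 as the largest differences among the 35 genes. BHLHE40 (ENSG00000134107, plus strand of chromosome 3, 4979437 to 4985323 in hg38), a transcriptional repressor that takes part in the circadian clock, was at 58.7, 58.0 and 56.4 FPKM in WT and at 31.0, 29.02 and 31.8 FPKM in sgPARP1. The libraries of each group lay close together, and BHLHE40 fell by 47.0%, a log2 fold change of −0.89 with a standard error of 0.044 (limma, adjusted p = 0.000171). DDIT4 (ENSG00000168209, plus strand of chromosome 10, 72273919 to 72276036 in hg38), an inhibitor of the growth kinase mTORC1, was the most abundant of the 35 genes. It was at 329, 313 and 308 FPKM in WT and at 198, 181 and 207 FPKM in sgPARP1. The groups were far apart, and DDIT4 fell by 38.2%, a log2 fold change of −0.69 with a standard error of 0.056 (limma, adjusted p = 0.00116). Both calls held without any 1 library. MXI1, a repressor that opposes MYC, was at 10.6, 10.6 and 11.3 FPKM in WT and at 8.05, 8.77 and 8.43 FPKM in sgPARP1. It fell by 22.5% (log2 fold change −0.33, limma adjusted p = 0.0119), and the call was lost without sgPARP1 replicate 1 (adjusted p = 0.0556 by limma). WSB1, a ubiquitin ligase subunit, was at 8.82, 8.79 and 8.71 FPKM in WT and at 7.26, 7.12 and 7.19 FPKM in sgPARP1. Libraries within a group hardly differed, and WSB1 fell by 18.0% (log2 fold change −0.25, limma adjusted p = 0.0129). Its call was lost without WT replicate 2 and without sgPARP1 replicate 1 (limma, adjusted p = 0.0641 and 0.0592).

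The other 5 did not pass. KDM3A, a histone demethylase, was at 5.89, 6.10 and 6.16 FPKM in WT and at 4.90, 5.52 and 4.43 FPKM in sgPARP1. The sgPARP1 values all lay below the WT values, at a log2 fold change of −0.25 (limma, adjusted p = 0.0933), and without sgPARP1 replicate 2 it passed (limma, adjusted p = 0.045). NDRG1, a stress response protein long used as a marker of hypoxia, was at 95.7, 90.3 and 86.4 FPKM in WT and at 84.9, 79.7 and 82.0 FPKM in sgPARP1. Every sgPARP1 value lay below every WT value by a small margin, at a log2 fold change of −0.14 (limma, adjusted p = 0.129). ANKRD37, an ankyrin repeat protein, was at 4.11, 4.31 and 5.01 FPKM in WT and at 3.09, 2.39 and 4.15 FPKM in sgPARP1, on 83 to 170 reads. Replicate 3 of sgPARP1 lay just above WT replicate 1 and below the other two WT libraries, so the groups overlapped through that pair, and its standard error of 0.15 was the widest of the 35 genes. ANKRD37 overlaps UFSP2 on the other strand, at 2.57 FPKM. TMEM45A, a membrane protein, was at 12.1 ± 0.743 and 12.4 ± 0.441 FPKM, and BHLHE41, the relative of BHLHE40, at 0.652 ± 0.194 and 0.641 ± 0.0871 FPKM on 29 to 58 reads.

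The libraries of sgPARP1 shared the lower level of these genes. The median deviation of the 35 genes from their WT mean was −0.17, −0.25 and −0.21 on the log2 scale in sgPARP1 replicates 1, 2 and 3, while the median over all tested genes in each library stayed within 0.00474 of its WT mean. For the 14 genes that fell the median deviation was −0.36, −0.41 and −0.34, a description since these genes were chosen by that contrast. Replicate 2 was the lowest of its group in 8 of the 14. The 38 genes took 0.517% to 0.527% of the reads of a WT library and 0.428% to 0.444% of those of an sgPARP1 library.

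Other genes of the pathway were counted by lists that hold none of the 38 genes. These lists too were chosen with earlier results of these data known, so their counts are a description and no independent support. Over all tested genes limma called 4.44% lower and 3.52% higher, and voom 6.86% and 5.23%. At an unadjusted p under 0.05 in limma the shares were 12.3% and 12.1%. Of 22 glycolytic HIF targets, all tested, 10 fell and none rose (limma, with 11 lower and 0 higher at an unadjusted p under 0.05, and with 10 lower and 0 higher by voom on recovered reads), at a median log2 fold change of −0.11. The glucose transporter SLC2A3 fell by 58.4%, from 24.8 to 10.3 FPKM (log2 fold change −1.19, limma adjusted p = 0.000209). HK1, a hexokinase, fell by 35.5% (13.9 to 8.99 FPKM). SLC2A1, a further glucose transporter, fell by 26.5% (40.1 to 29.5 FPKM). The other 12 genes of the list did not pass. Among them were its most abundant genes, GAPDH and ENO1, whose mean FPKM in sgPARP1 was 0.303% higher and 2.44% lower. Of 15 genes that act on HIF itself, 14 were tested, 1 fell and 1 rose, at a median of 0.00465. A count of 1 call each way among 14 genes is close to the limma shares over all tested genes. ARNT2, a relative of ARNT, fell by 48.7%, from 3.62 to 1.85 FPKM (limma, adjusted p = 0.00725). CITED2, which competes with HIF alpha for its coactivators, rose from 28.3 to 36.4 FPKM (log2 fold change 0.35, limma adjusted p = 0.0202). Of 30 further HIF targets, 23 were tested, 6 fell and 3 rose, at a median of −0.07. ITGA5, an integrin that binds fibronectin, fell by 58.8%, from 8.93 to 3.68 FPKM. NDUFA4L2, a mitochondrial protein, rose from 11.9 to 20.5 FPKM (log2 fold change 0.74, limma adjusted p = 0.00223). EDN1, the vessel-narrowing peptide endothelin, rose from 13.1 to 20.5 FPKM (log2 fold change 0.61, limma adjusted p = 0.00155). HIF targets of this last list thus went both ways. The counts of calls were 6 for the glycolytic list without WT replicate 2 or sgPARP1 replicate 1, and 5 for the last list without WT replicate 2. The list of genes acting on HIF kept 1 call, ARNT2, without WT replicate 2 or 3 and without sgPARP1 replicate 1 or 3, where CITED2 had adjusted p-values of 0.0561 to 0.0804 by limma.

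DDIT4, STC2 and VEGFA are also known as targets of ATF4, the factor of the amino acid and endoplasmic reticulum stress response. ATF4 and 17 of its targets were counted as a further list, chosen with earlier results of these data known. ASNS, at a mean of 0.253 FPKM, and SESN2, listed at 0, were not tested. Of these 18 genes 16 were tested, 1 fell and 1 rose, at a median of 0.03, beside 4.44% lower and 3.52% higher over all tested genes. At an unadjusted p under 0.05 in limma 4 were lower and 3 higher, beside 12.3% and 12.1% of all tested genes. Voom called 3 lower and 2 higher, beside 6.86% and 5.23%. All sgPARP1 values lay below all WT values in 3 of the 16 and above them in 3, beside 14.9% and 16.1% of all tested genes. SHMT2, a mitochondrial enzyme of serine metabolism, fell by 15.4%, from 87.0 to 73.6 FPKM (limma, adjusted p = 0.00887). ATF5, a factor related to ATF4, rose from 10.9 to 13.7 FPKM (limma, adjusted p = 0.0399), a call that was lost without WT replicate 2 or 3 or any 1 sgPARP1 library (limma, adjusted p = 0.0761 to 0.129). ATF4 itself was at 96.2 ± 0.75 FPKM in WT and 96.0 ± 6.82 FPKM in sgPARP1 and did not pass. Its protein was not measured here, and whether ATF4 had a part in the lower DDIT4, STC2 and VEGFA was not tested.

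**Figure D4:**
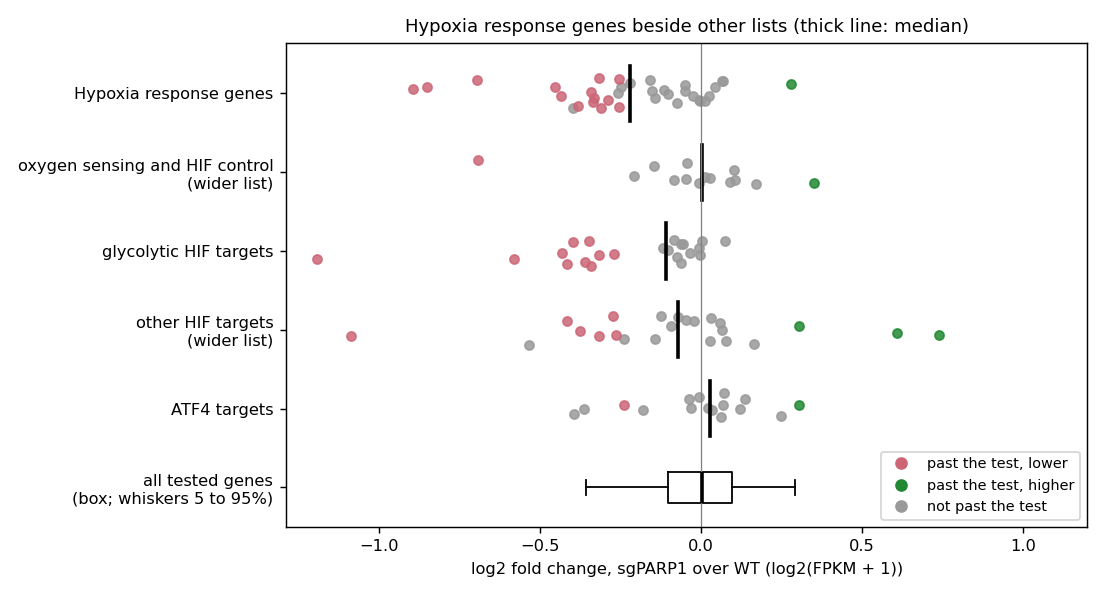
Log2 fold change of sgPARP1 over WT on the log2(FPKM + 1) scale for each tested gene of 5 lists, with a thick line at each list's median and a box for all tested genes. The medians run from −0.22 for the 35 hypoxia response genes to 0.03 for the ATF4 list, beside 0.00292 over all tested genes.

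The differences were also set beside those of neighbouring genes on the chromosomes. Up to 20 tested genes on either side of each gene were taken. For the 14 genes that fell, the median log2 fold change of their neighbours ran from −0.07, beside EGLN1, to 0.08, beside EGLN3. EGLN1, at 231363751 to 231422287, lies on the same chromosome as the targeted gene PARP1, at 226360210 to 226408154 of chromosome 1. ARNT and PLOD1, which did not pass, lie on chromosome 1 too, and their neighbours had medians of −0.07 and −0.01. For the 20 genes that did not pass, the neighbours' median ran from −0.07 to 0.18, the highest being beside HILPDA. Of the 40 neighbours of HILPDA 11 were called higher and 0 lower, beside 3.52% and 4.44% of all tested genes. The neighbours of EPAS1 had a median of 0.02, and EPAS1 itself 0.28. Whether a difference along a stretch of chromosome had a part in any single gene's result was not tested.

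**Figure D5:**
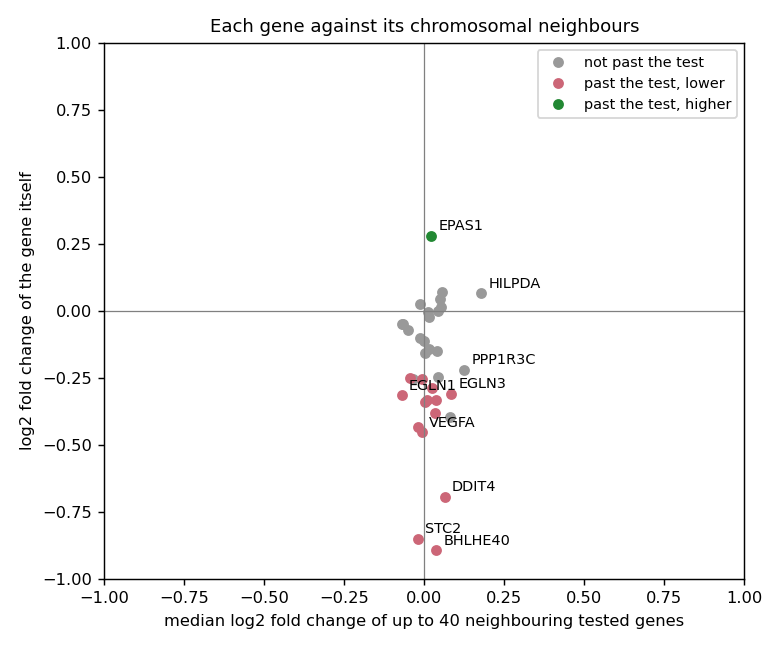
Log2 fold change of each of the 35 tested genes against the median log2 fold change of up to 40 neighbouring tested genes on its chromosome. The neighbours' medians lie between −0.07 and 0.18, while the genes themselves run from −0.89 to 0.28.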

How the data were processed

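The authors deposited 1 table of FPKM, with gene IDs, names, positions and lengths, whose 6 sample columns were matched to samples by title. Per the submitters' processing notes, the builds were GRCm38, hg38 and mm10, with no role stated. Aligner, counter and use of strand: not given in the sources used here. GENCODE 29 (hg38) lists 58260 of the gene IDs, all 38 genes among them, and for 99.9% its position and the deposited one share bases, so coordinates are hg38. Multiplied by gene length, the deposited FPKM came in whole steps: low values, 12918 to 13118 per library, were all less than 0.02 reads from a whole number. The depth given for a library is the sum of these recovered reads over the listed genes.

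Genes averaging 0.5 FPKM or more were tested on log2(FPKM + 1), a pseudocount of 1, with limma 3.58.1 (eBayes with trend, no covariate) in R 4.3.3, with Benjamini-Hochberg adjustment over all tested genes at 0.05. The same steps were tested on simulated data. Alternatives were pseudocounts of 0.1 and 0.5, no filter, a mean of at least 5 FPKM, median centring, a replicate block, voom on the recovered reads, which called 12.1% of tested genes, and leaving out each library. The labels do not say whether replicate numbers pair libraries. Correlations of deviations were −0.026 to 0.081 between same-numbered libraries and −0.101 to 0.064 between the others, so no pairing was seen. Promoters are RefSeq windows of GRCh38.p14.

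The members and the lists were chosen with earlier results of these data known, so no p is given over a list. Named genes are all members, PARP1, and from each other list up to 3 genes with the largest log2 fold change past the test. Outside that rule, LDHA, ALDOA, GAPDH, ENO1, ATF4, ASNS and SESN2, cell type markers and genes that overlap a member are named.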

Additional observations from a re-analysis of the deposited data

How the results depend on the processing

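Pseudocounts of 0.1 and 0.5 and median centring called the same 15 genes of the 35. No filter called 10, losing EGLN1, EGLN3, EPAS1, ERO1A and INSIG2, so 0 were higher, with a median of −0.15, and it called 587 genes in all, 2.07% of those tested. A mean of at least 5 FPKM added PPP1R3C and left INSIG2 untested, while 15% of the 6601 genes tested there were called, against 7.96%. Voom called 18, the 15 with KDM3A, NDRG1 and PDK1, and 1591 in all. A replicate block, although pairing by number is not known, called 8, 0 of them higher, and 550 in all, 4.18%. In the other lists, the ATF4 list gave 1 call with no filter, 4 at 5 FPKM (3 lower and 1 higher) and 5 by voom (3 lower and 2 higher), and the genes acting on HIF 1 with no filter and 1 at 5 FPKM.

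Leaving out 1 library gave 7 to 11 calls among the 35 genes (7 without WT replicate 2, 9 without WT replicate 3 or sgPARP1 replicate 1), 0 to 1 higher, medians of −0.24 to −0.19, and 412 to 652 calls over all genes. It gave 6 to 9 for the glycolytic list, 5 to 7 for further HIF targets, 1 to 2 for the genes acting on HIF, 1 to 2 for ATF4 targets, and −2.63 to −2.61 for PARP1. BHLHE40, STC2, DDIT4, VEGFA, ADM and BNIP3 passed in all 6. The 14 genes that fell were below 0 under every alternative. Their groups did not overlap, so another pseudocount or leaving out a library could not have changed that sign.

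Genes that did not pass and changed sign without 1 library were VHL (−0.0137 to 0.0685), FAM162A (−0.0251 to 0.0187), LOXL2 (−0.0846 to 0.0015), P4HA1 (−0.0391 to 0.0455), P4HA2 (−0.0654 to 0.0032), TMEM45A (−0.0037 to 0.076) and BHLHE41 (−0.0711 to 0.0883, and 0.0029 at a pseudocount of 0.1), as log2 fold changes over the 6 omissions. The cause of these shifts was not tested. Few reads limit CA12, STC1 and EPO, which were untested, and EGLN2, BHLHE41 and ANKRD37, at no more than 170 reads a library. Whether reads of EGLN2 and ANKRD37 were lost in counting to the genes they overlap was not tested.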
